A study of Homo sapiens with 4 samples.

Results

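The 261 genes described here are the zinc finger genes of human chromosome 19 whose names consist of ZNF and a number, with or without a closing letter. They were chosen by name and position alone, among 60651 genes in the deposited files, and 247 of them are annotated as protein-coding and 14 as pseudogenes. Ribosome-protected fragments were sequenced from K562, THP-1, MOLM13 and HL60 cells, with 1 library per line. K562 was established from chronic myeloid leukemia in blast crisis, THP-1 from acute monocytic leukemia, MOLM13 from acute myeloid leukemia, and HL60 from acute myeloid leukemia with promyelocytic features. No treatment is named for any of the 4 lines, and all were lysed in a buffer that held cycloheximide, which stalls ribosomes on their messages. MOLM13 was grown in DMEM, THP-1 in RPMI1640 with 2-mercaptoethanol, and HL60 and K562 in IMDM, so line and medium cannot be told apart for THP-1 and MOLM13. Each line is a single established culture without a replicate, so no difference between lines has a replicate check and none was tested. The series concerns long non-coding RNAs that may also be translated, and these genes are largely protein-coding genes read from the same libraries.

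Most genes of this family encode a row of C2H2 zinc fingers, small folds in which pairs of cysteines and histidines hold a zinc ion and neighbouring fingers together read a stretch of DNA. Many also carry a KRAB domain at the start of the protein, which recruits TRIM28 (KAP1) and, through it, the histone methyltransferase SETDB1 and heterochromatin proteins, and so silences the bound DNA. Transposable elements are the best described targets of these repressors, and the genes stand in tandem clusters that grew by duplication.

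The repeated origin is visible in the coding sequence. Neighbouring fingers are joined by a conserved linker, and 213 of the 247 protein-coding members hold at least 1 copy of its coding pattern. The 4 in-frame words of 29 bases that start with this linker and occur in the most members are printed first, because a protected fragment had a modal length of 29 bases and such a word cannot be placed on a single gene. Capitals mark the linker codons, each line runs 5′ to 3′ on the coding strand, and the sequences are those of GENCODE release 29 transcripts.
Word 1: ACTGGAGAGAAACCCtacaaatgtgaaga
Word 2: ACTGGAGAGAAACCTtacaaatgtgaaga
Word 3: ACTGGAGAGAAACCTtacaagtgtaatga
Word 4: ACTGGAGAGAAACCTtacaaatgtaatga
Word 1 occurs in 34 members, all of them in 1 stretch of chromosome 19 that is called run 4 here. Word 2 occurs in 20 members, of which 7 lie in run 4 and 13 in run 8. Words 3 and 4 occur in 16 and 11 members, all in run 8. Over whole transcripts, a median of 86.3% of a member's 29-base words occurred in no other gene, against 95.6% over all protein-coding genes. Levels of members with few words of their own therefore depend on how the authors' aligner and StringTie shared reads between copies.

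The libraries held 473 (K562), 678 (THP-1), 344 (MOLM13) and 973 (HL60) megabases of aligned footprints. Levels are given as scaled TPM, the authors' TPM summed over each gene and scaled between libraries, a unit that is divided by transcript length. Erythroid markers such as GATA1 (96.9) were high in K562, IRF8 (558) and CD68 (169.5) in THP-1 and MPO (6359) in HL60. Other granule genes of the HL60 marker list were higher in THP-1: ELANE was at 1504 there and 104 in HL60, AZU1 at 2065 and 337, PRTN3 at 1088 and 161, and CTSG at 3548 and 2288. In the MOLM13-labelled library, FLT3 and MEIS1, which mark that line, were listed at 0, CD33 was at 5.46 and CD14 at 1.43, while HOXA9 was at 29.5, HOXA10 at 16.2 and the epithelial keratin KRT8 at 125 scaled TPM, near its 151 in K562. The T-cell gene CD3E was at 12.4 in that library and listed at 0 in the other 3. The file of that library also bears another name than its label, so it is called the MOLM13-labelled library throughout. The small ubiquitin-like modifier gene SUMO2, which every cell uses, was listed at 0 in all 4 libraries, so a value of 0 here says only how a gene was listed.

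Most zinc finger genes of chromosome 19 were present at low levels in at least 1 line, and K562 held the fewest. At a scaled TPM of at least 1 stood 122 members (46.7%) in K562, 163 (62.5%) in THP-1, 167 (64.0%) in the MOLM13-labelled library and 145 (55.6%) in HL60. Over all 19893 nuclear protein-coding genes the shares were 45.1%, 49.4%, 47.9% and 45.5%, in the same order. Over the 277 ZNF genes of the same name pattern on other chromosomes they were 52.0%, 61.0%, 55.2% and 50.5%, with HL60 lowest. Thus 83 members (31.8%) reached this level in all 4 lines, against 34.5% of protein-coding genes. In no line did 49 members (18.8%) reach it, against 40.6% of protein-coding genes. The level of a member was low where it was present. The median above 0 was 2.18, 2.89, 2.80 and 1.84 scaled TPM in K562, THP-1, the MOLM13-labelled library and HL60. The corresponding medians of protein-coding genes were 10.3, 8.43, 10.8 and 7.30. Those of the ZNF genes on other chromosomes were 3.65, 3.00, 2.94 and 2.16, so low levels were not particular to chromosome 19. Scaled TPM is divided by transcript length, and the last exon takes a larger share of that length in the members, as given below. The part of length in the difference from all protein-coding genes was not tested. The members together took 0.174%, 0.245%, 0.257% and 0.205% of all aligned bases.

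**Figure D1:**
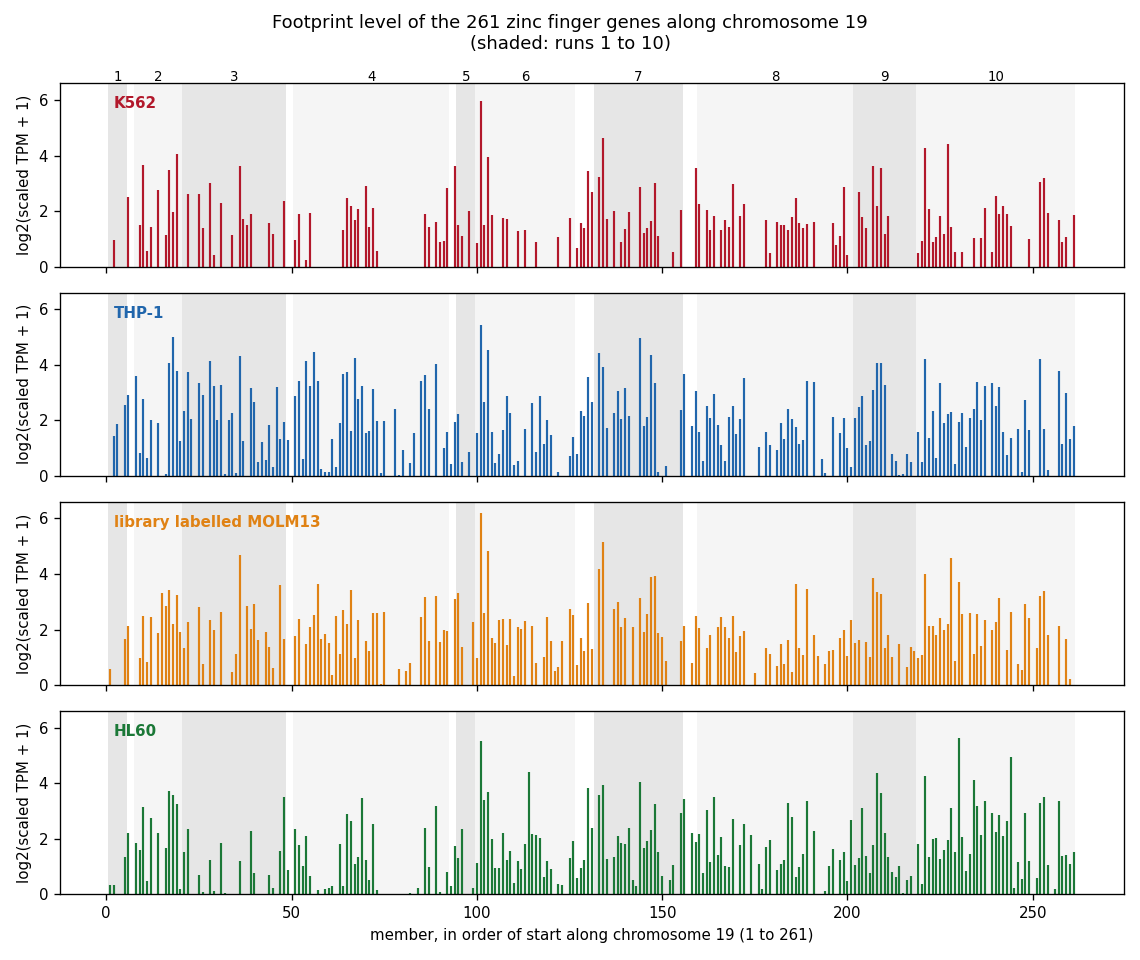
Each vertical line is 1 of the 261 members, placed in order of its start along chromosome 19; its height is log2(scaled TPM + 1) in that library, and shading with numbers marks runs 1 to 10. Members reach 62.2 scaled TPM in K562 and 72.4 in the MOLM13-labelled library (ZNF146), the left stretch of runs 3 and 4 is fuller in THP-1 than in K562 or HL60, and gaps at 0 are most frequent in K562.

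K562 listed 116 members at 0, THP-1 48, the MOLM13-labelled library 63 and HL60 53. In K562 alone 41 members were listed at 0 while the other 3 lines were above it; the same count was 2 for THP-1, 8 for the MOLM13-labelled library and 2 for HL60. This count was not made over all genes, so it cannot be read as particular to the members. Protein-coding genes listed at 0 made up 50.3%, 41.8%, 47.5% and 43.7% in the same order, so K562 also had the largest share of zeros over all genes. The part of depth in these zeros was not tested. Over the 212 members at 1 or more in any line, the median log2 difference to the mean of the other 3 lines was -0.56 in K562, 0.45 in THP-1, 0.10 in the MOLM13-labelled library and -0.09 in HL60. Over protein-coding genes at that level these medians were -0.10, 0.05, 0.12 and -0.21. The 277 ZNF genes of the same name pattern on other chromosomes had medians of -0.19, 0.39, -0.06 and -0.25 over the 201 at that level, so the THP-1 value of the chromosome 19 members had a close counterpart there. THP-1 was the highest line for 79 of the 212 members (37.3%), the MOLM13-labelled library for 68 (32.1%), HL60 for 40 (18.9%) and K562 for 25 (11.8%). Over protein-coding genes at that level these shares were 27.8%, 29.7%, 19.4% and 23.1%, in the same order. Over the ZNF genes on other chromosomes they were 45.8%, 22.4%, 11.9% and 19.9%. In bulk libraries, fewer cells with a message, less message per cell and fewer ribosomes per message cannot be told apart.

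The member with the highest level was ZNF146 (ENSG00000167635.12, chr19:36214602-36238771 in hg38), which encodes a protein of zinc fingers with no KRAB domain. It stood at 62.2 scaled TPM in K562 (95% Poisson interval 59.4 to 65.0, counting error only), 41.8 in THP-1 (40.1 to 43.5), 72.4 in the MOLM13-labelled library (69.1 to 75.9) and 44.9 in HL60 (43.3 to 46.7). Levels not divided by length are aligned bases per megabase of bases on nuclear protein-coding genes, times a factor for each library. The factor is the median ratio of scaled TPM to those bases per megabase, over the genes used for scaling. For ZNF146 these levels were 67.2, 65.1, 83.0 and 48.3 in the same order. The MOLM13-labelled library was highest on both scales, whereas K562 was well above THP-1 only per length. ZNF146 shares exon bases with ZNF565, and the deposited counting used no strand option, so reads of the shared bases cannot be assigned to either gene with certainty. ZNF428 (chr19:43607224-43619629) was at 23.5, 14.2, 34.1 and 14.4 scaled TPM in K562, THP-1, the MOLM13-labelled library and HL60; it holds only 1 finger pattern and overlaps SRRM5. ZNF260 (chr19:36510687-36528271), which overlaps no other gene's exons, was at 14.5, 22.0, 27.0 and 11.8 in the same order. Not divided by length it was at 11.2, 8.04, 8.68 and 4.33, with K562 highest. The flattest of the high members was ZNF460 (chr19:57280051-57294069), with 18.1, 17.3, 14.8 and 18.3 scaled TPM. The other 6 of the 10 members with the highest minimum were ZNF121, ZNF787, ZNF576, ZNF227, ZNF562 and ZNF274, with values between 6.99 and 20.4 scaled TPM. Of the 10, ZNF146, ZNF428, ZNF260, ZNF121, ZNF787 and ZNF576 have no KRAB pattern.

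A KRAB A box was recognised in 212 of the 247 protein-coding members and not in 35. In those without the pattern, 45.7% reached 1 scaled TPM in all 4 lines and 28.6% in none, against 30.7% and 14.6% of members with it. Members without KRAB were therefore more often at one of the ends. Their median scaled TPM above 0 was 9.79 (K562), 7.49 (THP-1), 4.76 (MOLM13-labelled library) and 3.59 (HL60). With KRAB it was 1.95, 2.73, 2.80 and 1.68, lower in each of the 4 libraries. Over all members, zeros included, the medians were 0, 4.00, 1.53 and 2.37 without KRAB and 0.873, 2.04, 2.05 and 1.28 with it, so in K562 and the MOLM13-labelled library the order of the medians was opposite. The order of the lines was the same in sign for K562 and THP-1: the median log2 difference was -0.62 and 0.42 for members with KRAB, and -0.36 and 0.53 for those without.

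**Figure D2:**
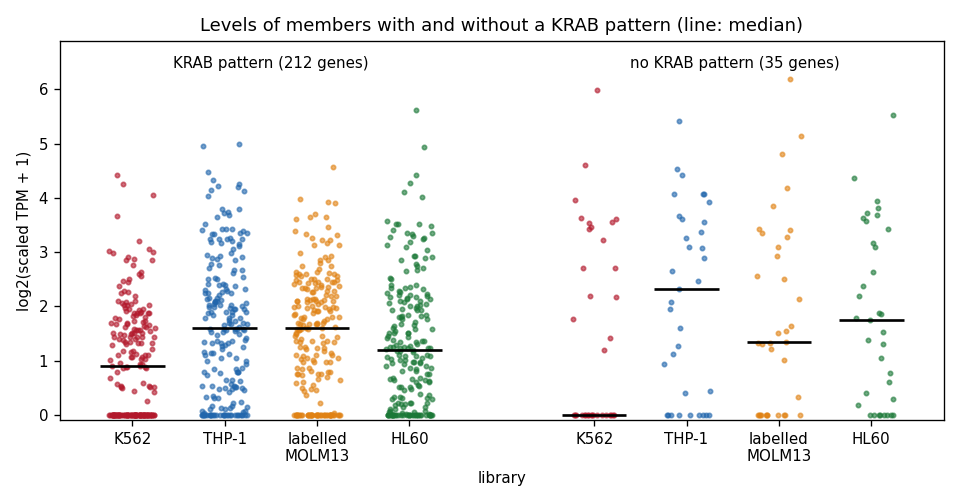
Each point is a protein-coding member, at its log2(scaled TPM + 1) in 1 library; the left block shows the 212 members with a KRAB pattern, the right block the 35 without, and a black line marks the median over all points of a column. The right block holds the highest members and, in K562, has its median at 0, since 18 of the 35 were listed at 0.

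Few members stood apart in a single line. A member counted as high in a line if its log2(scaled TPM + 1) exceeded that of each other line by 2 or more and it held 600 aligned bases there. It counted as low if it lay 2 or more under every other line and each of those held 600 bases. By this rule of size, 1 member was high in K562 (1.04% of all protein-coding genes were), 7 in THP-1 (1.99%), 4 in the MOLM13-labelled library (1.15%) and 3 in HL60 (0.88%). Low were 5 members in K562 (2.17% of protein-coding genes), 0 in THP-1 (0.266%), 0 in the MOLM13-labelled library (0.88%) and 1 in HL60 (0.799%). High calls in THP-1 made up 2.68% of members and low calls in K562 1.92%, so neither share lay far from that of all protein-coding genes. Of the 21 called members, 11 kept the call when levels were not divided by transcript length, and 19 with the deposited TPM unscaled. The 10 that lost it without division by length were ZNF749, ZNF296 and ZNF585B in K562, ZNF431, ZNF506, ZNF433 and ZNF887P in THP-1, ZNF490 in the MOLM13-labelled library, and ZNF814 and ZNF880 in HL60.

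**Figure D3:**
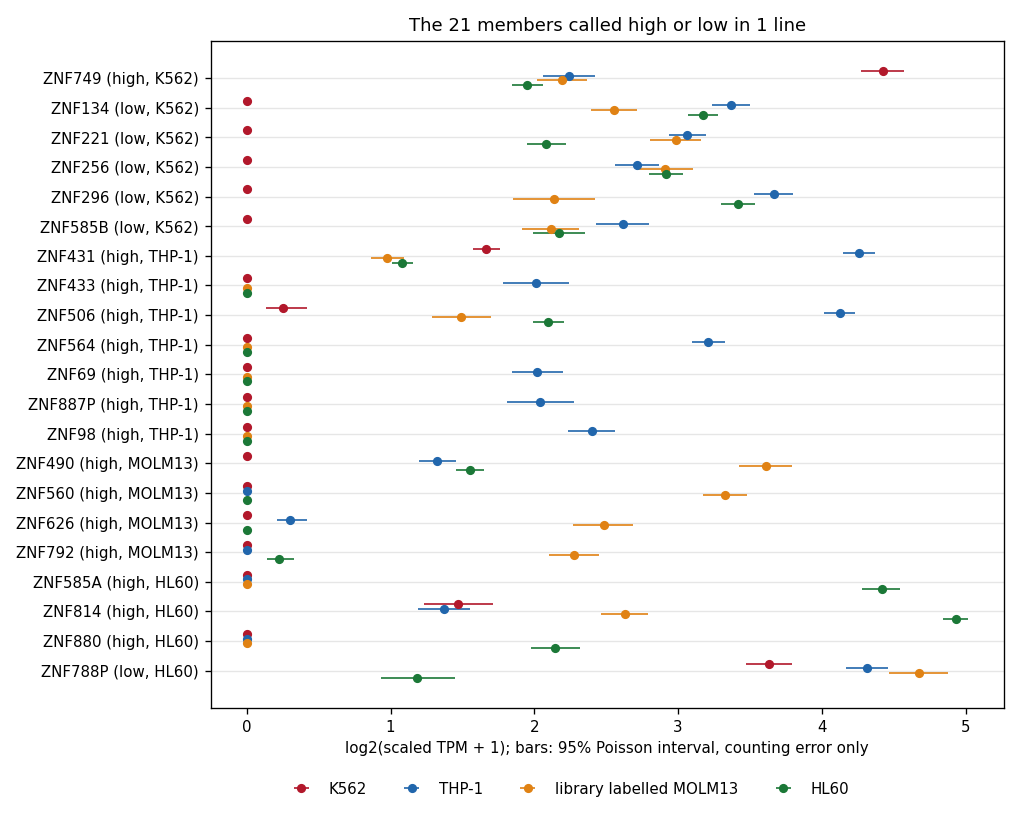
Rows are the 21 called members with the line and direction of the call; points give log2(scaled TPM + 1) in each library and bars the 95% Poisson interval, which covers counting error only and is absent at 0. The K562 point lies at 0 in the 5 members called low there, and 8 of the 15 members called high were listed at 0 in the other 3 lines.

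In K562 the member called high was ZNF749 (chr19:57435325-57447101), at 20.5 scaled TPM (18.4 to 22.7) against 3.73 in THP-1, 3.57 in the MOLM13-labelled library and 2.87 in HL60. The K562 value was 5.48 times the next highest line. In K562, however, 92.2% of the signal of its main transcript lay in the first exon, chr19:57435347-57435667, and on levels not divided by length K562 was at 12.5 and the MOLM13-labelled library at 7.96, which ends the call. It was also lost with unscaled TPM, where the log2 distance was 1.85. The 5 members low in K562 were ZNF256, ZNF221, ZNF296, ZNF134 and ZNF585B, and K562 listed each at 0. ZNF256 (chr19:57940833-57947706) was at 5.56, 6.50 and 6.55 scaled TPM in THP-1, the MOLM13-labelled library and HL60, so the other lines hardly differed. ZNF134 (chr19:57614233-57624724) was at 9.34, 4.88 and 8.03 in the same lines, and both genes share no exon with another gene. ZNF296, known as a partner of chromatin regulators in stem cells and blood cells, was at 11.7, 3.40 and 9.69, and overlaps the antisense gene GEMIN7-AS1.

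In THP-1 the member farthest above the others was ZNF564 (chr19:12525373-12551542), at 8.26 scaled TPM (7.54 to 9.02) and listed at 0 in the other 3 lines. Only 27.4% of its 29-base words occur in no other gene. ZNF98 (chr19:22391019-22532485) was at 4.28 (3.71 to 4.91) in THP-1 alone, with 48.8% of words of its own, and the pseudogene ZNF887P was at 3.12, with 49.3%. In THP-1, 52.1% of the signal of ZNF98's main transcript lay in the exon chr19:22422195-22422346. ZNF564 shares exon bases with 2 other genes, ZNF887P with 1 and ZNF98 with none, and words shared with an overlapping gene were not separated from words shared with a related one. ZNF431 (chr19:21142024-21196053) was at 18.1 scaled TPM in THP-1 against 2.17 in K562, 0.965 in the MOLM13-labelled library and 1.11 in HL60. This call rests on length: in THP-1 StringTie placed 68.3% of the gene's bases on a short transcript, and on levels not divided by length K562 was at 16.1 and THP-1 at 15.2. ZNF506, ZNF433 and ZNF69 were the other members called high in THP-1, named here after their values were seen.

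In the MOLM13-labelled library, ZNF560 (chr19:9466355-9498616) was at 9.04 scaled TPM (8.02 to 10.2) and listed at 0 in the other 3 lines, with 99.0% of words of its own and no overlapping gene. ZNF792 (chr19:34956354-34964229) was at 3.84 against 0.167 in HL60 and 0 in K562 and THP-1, with 99.9% of words of its own. For these 2 members sequence sharing within the transcriptome is small. ZNF626 was at 4.58 against at most 0.234 in another line, and ZNF490 at 11.2 against 1.5 in THP-1, 1.94 in HL60 and 0 in K562. In the MOLM13-labelled library, 60.2% of the signal of ZNF626's main transcript lay in the exon chr19:20661444-20661571. For ZNF490 it was 64.5%, in the exon chr19:12609870-12609974. The ZNF490 call was lost on levels not divided by length, where it was at 9.81 and the log2 distance to HL60, the next line, was 0.52. In HL60, ZNF585A (chr19:37106734-37172741) was at 20.3 scaled TPM (18.4 to 22.4) and listed at 0 elsewhere, but 69.3% of the signal of its main transcript lay in the exon chr19:37169839-37170054. Its neighbour and near copy ZNF585B was at 3.50 in HL60, 5.13 in THP-1 and 3.33 in the MOLM13-labelled library. ZNF814 was at 29.5 in HL60 against 1.77, 1.58 and 5.19 in K562, THP-1 and the MOLM13-labelled library, and overlaps 4 other genes, ZNF587 among them. Not divided by length it was at 18.2 in HL60 and 10.3 in the MOLM13-labelled library, a log2 distance of 0.77, which ends the call. ZNF880, without overlap, was at 3.43 in HL60 alone. The pseudogene ZNF788P was low in HL60, at 1.27 against 11.4, 18.9 and 24.6.

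Between pairs of lines, THP-1 and K562 had the most members far apart. At least 4-fold higher in THP-1 than in K562, on the log2(scaled TPM + 1) scale and with at least 600 aligned bases in the higher line, were 34 members (13.0%, against 8.13% of protein-coding genes), of which 23 were listed at 0 in K562. The reverse held for 1 member (0.383%, against 3.78% of protein-coding genes). In the brackets that follow, the share of members stands first and that of protein-coding genes second. In the MOLM13-labelled library, 28 members were 4-fold above K562 (10.7% and 5.49%), and 3 below it (1.15% and 3.15%). HL60 had 16 members above K562 (6.13% and 6.37%) and 4 below (1.53% and 5.23%). THP-1 against HL60 gave 20 above (7.66% and 4.52%) and 5 below (1.92% and 2.03%). THP-1 against the MOLM13-labelled library gave 15 above (5.75% and 6.3%) and 10 below (3.83% and 4.32%). The MOLM13-labelled library had 17 members above HL60 (6.51% and 6.06%) and 11 below (4.21% and 4.67%). These comparisons share libraries and are not independent. Pearson's r of log2(scaled TPM + 1) over the 261 members ranged from 0.56 to 0.63 over the 6 pairs, and from 0.83 to 0.91 over protein-coding genes, which span a wider range of levels; points share the libraries and their depth.

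Along the chromosome, members were split where neighbours lay over 500 kb apart, and stretches of at least 5 members were numbered as runs. The 10 runs hold 246 members and 15 lie outside. Runs 1 to 4 lie on the part of the chromosome before chr19:24129968, and runs 5 to 10 after chr19:34677639. The lines did not keep 1 order from run to run. THP-1 had the highest sum in runs 1, 2, 3, 4, 7 and 9, the MOLM13-labelled library in runs 5 and 6, and HL60 in runs 8 and 10. K562 had the lowest sum in 8 of the 10 runs; in run 3 HL60 was lower, and in run 5 both THP-1 and HL60 were lower than K562 (6.05). When sums were not divided by length, the highest was in THP-1 in runs 1, 3, 4 and 8, in HL60 in run 10 and in the MOLM13-labelled library in the other 5. On that scale K562 was lowest in 6 runs, HL60 in runs 3, 4 and 5, and the MOLM13-labelled library in run 1.

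**Figure D4:**
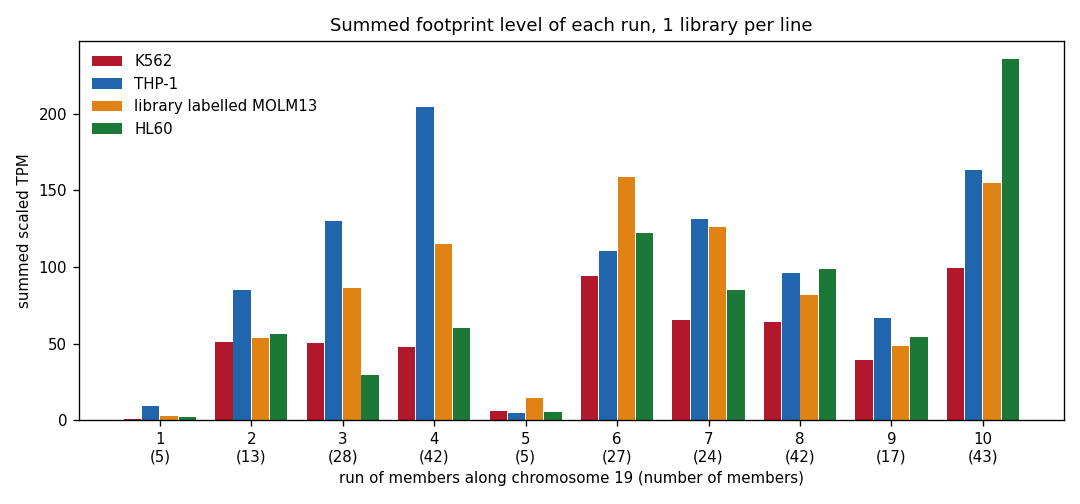
Bars give the summed scaled TPM of the members of each run (number of members in brackets) in each library, 1 library per line and hence without error bars. Run 4 shows the widest gap between THP-1 (205) and K562 (48.0) among runs of over 5 members, and run 10 has its highest bar in HL60 (236).

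Run 4 spans chr19:19668796-24129968, from ZNF101 to ZNF254, and holds 42 members, of which 35 carry a KRAB pattern and 5 are pseudogenes. Their summed scaled TPM was 48.0 (K562), 205 (THP-1), 115 (MOLM13-labelled library) and 60.2 (HL60). THP-1 was thus 4.26 times K562, 3.40 times HL60 and 1.78 times the MOLM13-labelled library, whereas over all 261 members these ratios were 1.87, 1.33 and 1.21. On levels not divided by length, the ratio to K562 was 2.73. Of the 33 members of the run at 1 or more in any line, 29 were higher in THP-1 than in K562, 27 higher than in HL60 and 21 higher than in the MOLM13-labelled library. THP-1 was the highest line for 19 of the 33, and 14 members above 0 in THP-1 were listed at 0 in K562. The median log2 difference was -0.64 in K562, 1.10 in THP-1, 0.20 in the MOLM13-labelled library and -0.77 in HL60. No library was replicated, so the spread of such a sum between cultures is unknown.

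Of the genes of run 4 named here, ZNF93 and ZNF91 are described as repressors of transposable elements. ZNF93 (chr19:19900913-19963464), known to bind and silence young LINE-1 elements, was at 21.2 scaled TPM in THP-1 and 4.70 in the MOLM13-labelled library, and was listed at 0 in K562 and HL60. In THP-1, 80.1% of its main transcript's signal lay in the last exon, chr19:19933182-19935575. ZNF91 (chr19:23304991-23395471), known for the repression of SVA elements, was present in every line, at 1.70 in K562, 4.30 in THP-1, 1.99 in the MOLM13-labelled library and 0.968 in HL60. ZNF675 (chr19:23525631-23687220), described as an inhibitor of TRAF6 signalling, was at 2.07, 15.3, 8.32 and 8.05 in the same order. ZNF430 was at 4.54, 12.3, 3.55 and 6.45. In these 4 genes THP-1 was highest and the lowest line differed. The pattern was not shared by all: ZNF626 (4.58) was high in the MOLM13-labelled library, and ZNF493 and ZNF254, named after their values were seen, were highest in K562, at 6.53 and 6.20 against 1.89 and 1.97 in THP-1.

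Run 3 (chr19:11483427-12640098, 28 members) had sums of 50.2, 130.0, 86.4 and 29.6 scaled TPM in K562, THP-1, the MOLM13-labelled library and HL60, and THP-1 was highest for 15 of 25 members. The pseudogene ZNF788P had the run's highest value in K562, THP-1 and the MOLM13-labelled library, and made up 22.8%, 14.6% and 28.4% of those sums. In THP-1, 57.2% of the signal of its main transcript lay in the exon chr19:12092387-12092470. ZNF440 was at 7.17, 16.7, 4.10 and 1.35 in K562, THP-1, the MOLM13-labelled library and HL60. Run 6 (chr19:36182276-37817300, 27 members) had sums of 93.9, 110.3, 159 and 122; ZNF146 made up between 36.8% and 66.2% of them, and the MOLM13-labelled library was highest for 14 of 24 members. Run 7 (24 members) had sums of 65.7, 131, 126 and 84.9, with ZNF224 at 6.37, 30.1, 7.74 and 15.3. ZNF224 is described as a repressor of metabolic genes and a partner of WT1, and 57.0% of its words are its own; not divided by length it was at 9.59, 23.1, 12.3 and 13.1. Run 8 (42 members) varied least among the large runs, with sums of 64.3, 96.3, 81.5 and 98.8; its leading members were ZNF816 (1.90, 9.71, 9.99 and 9.27) and ZNF616 (6.96, 4.69, 4.67 and 5.52). Of the remaining runs, run 2 had sums between 51.1 and 84.8 and was led by ZNF121 and ZNF561, the latter at 2.89, 30.8, 3.65 and 10.98. Not divided by length, ZNF561 was at 7.0, 15.6, 8.74 and 4.06, so its lead in THP-1 was smaller on that scale. Run 9 had sums between 39.1 and 66.9 and was led by ZNF787 and ZNF581, the latter at 3.52, 15.9, 9.22 and 19.5. Runs 1 and 5, of 5 members each, did not exceed 14.4.

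Run 10 (chr19:57191500-58481230, 43 members) had sums of 99.0, 163, 155 and 236 scaled TPM, and HL60 was highest for 13 of 37 members. Its highest value was ZNF773 (chr19:57499915-57518404), at 48.3 in HL60, 12.1 in the MOLM13-labelled library, 2.88 in THP-1 and listed at 0 in K562. This single gene made up 20.5% of the run in HL60. Not divided by length, ZNF773 was at 152 in HL60, 32.7 in the MOLM13-labelled library and 3.59 in THP-1. On that scale the run's sums were 429, 287 and 271 in the same order, so much of the HL60 lead came from this gene. In HL60, 99.7% of the main transcript's signal was in its last exon, chr19:57513022-57518404, with a mean coverage of 46.5 per base. The exon chr19:57506358-57508229, which is the last exon of the transcript that held the signal in THP-1, had a coverage of 1.16 in HL60, 0.868 in the MOLM13-labelled library and 1.21 in THP-1. K562 listed this exon at 0, and these coverages are not scaled for the depth of the libraries. The overlapping gene AC003005.1 was at 58.3 scaled TPM in THP-1 and listed at 0 in the other lines, with 97.0% of its signal in the exon chr19:57513022-57513151, which starts at the same base. Whether the same fragments were assigned to different genes in different libraries was not tested.

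Other described members were mostly low. ZNF274, which guides SETDB1 to the ends of other zinc finger genes, was at 7.38 in K562, 17.5 in THP-1, 8.33 in the MOLM13-labelled library and 8.68 in HL60. ZNF331, an imprinted gene, was listed at 0 in K562 and at 0.259, 4.04 and 5.40 in THP-1, the MOLM13-labelled library and HL60; not divided by length the last pair was 10.8 and 5.12, the opposite order. ZNF382 was listed at 0 in K562 and did not exceed 1.85. ZNF808, which silences MER11 elements, was at 2.18, 2.01, 1.54 and 2.28 and so nearly level. ZNF417 and ZNF587 are near copies known to bind endogenous retroviruses: ZNF417 was at 0, 2.22, 0.685 and 1.24, and ZNF587 was listed at 0 in 3 lines and at 0.168 in HL60. With 48.2% and 52.8% of words of their own, their sharing of reads is uncertain. ZNF154, known for methylation of its promoter in tumours, was listed at 0 in all 4 lines.

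In these genes the zinc fingers and the 3′ untranslated region are usually in the last exon. In the main transcript of members with at least 600 aligned bases and 2 or more exons, the last exon made up a median of 88.4% of the length in K562 (132 members), 86.7% in THP-1 (190), 87.6% in the MOLM13-labelled library (178) and 87.4% in HL60 (181). It held a median of 72.3%, 59.7%, 67.0% and 59.3% of the aligned bases. In other protein-coding genes the last exon was 50.2% to 51.2% of the length and held 7.92% to 8.82% of the aligned bases. Thus most signal of the members lay in the exon that usually encodes the fingers, but at a lower coverage than the exons before it: the median ratio of coverage was 0.306, 0.214, 0.315 and 0.219, against 0.0839 to 0.0909 in the other genes. Coverage was higher in the last exon than in the others in 27.3% of members in K562, 8.42% in THP-1, 25.3% in the MOLM13-labelled library and 13.8% in HL60, against 5.33% to 8.28% of other genes. The deposited coverage is a mean per exon and does not tell the coding part of the last exon from its untranslated part.

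**Figure D5:**
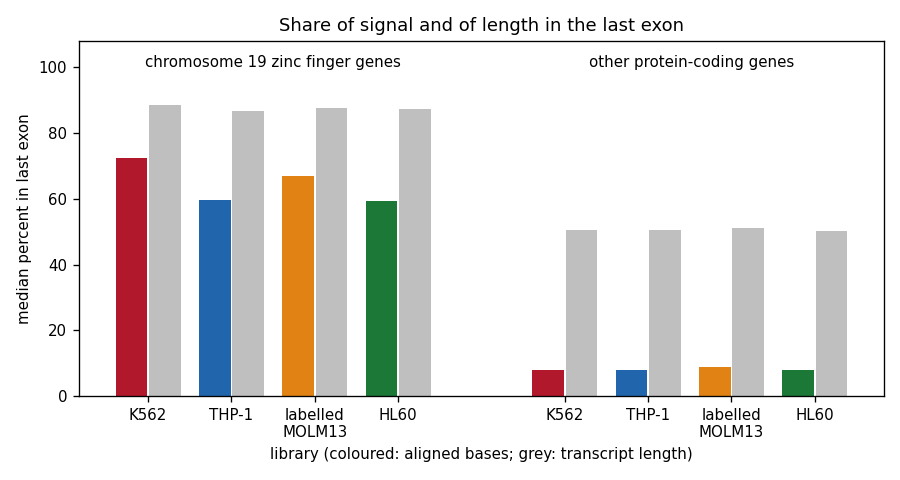
Coloured bars give the median percent of the main transcript's aligned bases in its last exon, grey bars the median percent of its length there; the left block shows the zinc finger genes, the right block all other protein-coding genes. In the zinc finger genes the last exon holds 59.3% to 72.3% of the bases, in the other genes 7.92% to 8.82%.

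A promoter window of 250 bases before to 50 after the start was found by symbol for 216 members in the RefSeq table of GRCh38.p14. Promoters of run 4 held few CG pairs: the median was 10 per 300 bases over 29 promoters, with a range of 8 to 18, against 22 over 187 members outside the run and 23 over 13980 promoters of protein-coding genes. Outside the run the count ranged from 2 to 49. The windows of ZNF93 (run 4, chr19:19900696-19900995, plus strand, 10 CG pairs) and ZNF260 (run 6, chr19:36528222-36528521, minus strand, 20 CG pairs) are printed. They were picked to show the difference in median between a gene of the run and a member outside it. Each runs 5′ to 3′ on the gene's strand, and capitals mark every CG.
ZNF93: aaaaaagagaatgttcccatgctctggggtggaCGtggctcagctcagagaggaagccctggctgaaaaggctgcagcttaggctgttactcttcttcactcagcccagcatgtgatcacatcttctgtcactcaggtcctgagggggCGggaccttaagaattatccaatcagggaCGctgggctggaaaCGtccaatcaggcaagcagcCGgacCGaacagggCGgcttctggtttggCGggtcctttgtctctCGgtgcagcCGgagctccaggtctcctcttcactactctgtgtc
ZNF260: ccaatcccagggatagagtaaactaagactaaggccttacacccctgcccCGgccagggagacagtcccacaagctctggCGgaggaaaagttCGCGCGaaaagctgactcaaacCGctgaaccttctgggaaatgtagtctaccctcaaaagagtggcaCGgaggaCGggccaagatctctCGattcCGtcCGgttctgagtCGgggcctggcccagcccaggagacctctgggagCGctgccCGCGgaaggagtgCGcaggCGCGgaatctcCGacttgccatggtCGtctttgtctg
The median count was 22 in the 75 members at 1 or more in all 4 lines, 20 in 109 members in 1 to 3 lines and 21 in 32 members in none, so it hardly varied with breadth. Run 3 had a median of 16, run 8 of 25 and run 9 of 29.5. The palindrome CTCGCGAG, searched on both strands, was in 2 of the 216 windows (0.926%). It was in 1.68% of the 13980 windows of protein-coding genes and in 1.02% of all 35116 windows of the table. No DNA methylation was measured, and a count of letters says nothing of it.

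Genes through which KRAB zinc finger proteins act were present at much higher levels per length. Of 24 listed co-repressor genes, 23 stood at 1 scaled TPM or more in all 4 lines. TRIM28, the scaffold that KRAB domains bind, was at 207 in K562, 126 in THP-1, 167 in the MOLM13-labelled library and 192 in HL60. THP-1 had the lowest TRIM28 and, in scaled TPM, the highest summed level of the zinc finger members. By share of all aligned bases, the MOLM13-labelled library was highest for the members, at 0.257% against 0.245% in THP-1. A link between these levels was not tested. SETDB1, the methyltransferase of the complex, was at 26.5, 58.4, 35.9 and 34.8, highest in THP-1 and lowest in K562. Without division by length, HL60 was the lowest for SETDB1, at 49.7 against 59.9 in K562, and THP-1 stayed the lowest for TRIM28. The call rule gave 2 calls among the 24: ATF7IP2, a relative of the SETDB1 partner ATF7IP, was high in K562 (87.0 against 16.9, 13.8 and 13.5), and the NuRD remodeller CHD4 was high in HL60 (76.3 against 5.49, 6.11 and 11.98). The ATF7IP2 call was lost without division by length (31.5 in K562 against 12.8 in the next line, a log2 distance of 1.23), and that of CHD4 was kept. The median log2 difference of the list was -0.16, 0.18, -0.05 and -0.02 in K562, THP-1, the MOLM13-labelled library and HL60.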

How the data were processed

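The submitters' processing notes name StringTie 2.1.5, STAR 2.7.8a, Bowtie2 2.4.2, Trim Galore 0.6.6 and the build hg38. StringTie quantified GENCODE release 37 with no strand option, per the file headers. The deposited values, held as attribute text per transcript and exon, are mean coverage of each base, FPKM and TPM; no read counts were used here. TPM was summed per gene over 261 members, and libraries were scaled by the median ratio over the 3751 genes that reached a TPM of 10 in each of the 4 (factors 0.837, 1.01, 1.12 and 1.05 for K562, THP-1, MOLM13 and HL60). Aligned bases are coverage times length, and a modal length of 29 gives footprint equivalents for Poisson intervals. At 600 aligned bases these are 20.7 equivalents, with an interval of 61.7% to 153% of the value. Log2 values use a pseudocount of 1. The files name 225 members in all 4 libraries, and 2 further genes with such symbols in GENCODE release 29 (ZNF812P and ZNF807), unnamed in the files and listed at 0, were left out. Gene types, overlaps, coding sequence and word sharing came from GENCODE release 29. A finger pattern has 2 to 4 residues between cysteines, 12 in the middle and 3 to 5 between histidines; KRAB needs 16 of 40 residues identical to a consensus of the members. Word sharing was judged within the transcriptome only, without regard to strand.

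Named genes are up to 4 high and 4 low members per line with the largest distance, the 10 members with the highest minimum, the 2 members with the highest mean of each run, a list of 12 described genes, and co-repressors with a call, TRIM28 and SETDB1; genes outside this rule were chosen after their values were seen. ZNF221 is such a gene. The members and lists were chosen with earlier results of these data known. No test was made, with 1 library per line; the call rule was tested on simulated data. Alternatives were deposited TPM, no division by length, log2 differences of 1 and 3, pseudocounts of 0.1 and 5, minimums of 300 and 1200 aligned bases or 5 TPM, and subsets of members. The software was Matplotlib 3.10.9, pyarrow 21.0.0, pandas 2.3.3, NumPy 2.4.6, SciPy 1.17.1 and Python 3.11.15.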

Additional observations from a re-analysis of the deposited data

How the results depend on the processing

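No paired analysis was possible because each line has 1 library. Of 165 settings of the counts and medians, 94 kept the value within the range set for the main one, 67 moved and 4 changed sign; the cause was not tested.

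At 5 scaled TPM, 29, 67, 45 and 45 members remained above the level in K562, THP-1, the MOLM13-labelled library and HL60, and the median log2 difference was 0.73 in THP-1 and -0.066 in the MOLM13-labelled library, against 0.10 at 1 TPM. Among the 111 members sharing no exon, a set chosen after seeing the data, 51, 74, 73 and 62 stood at 1 or more, medians were 0.65 in THP-1 and -0.00168 in the MOLM13-labelled library, high calls numbered 0, 2, 2 and 1, and low calls 3 in K562 and 0 in HL60. With a pseudocount of 0.1, medians were -0.91 in K562, 0.77 in THP-1 and 0.056 in HL60, high calls 2, 15 and 17 in K562, THP-1 and the MOLM13-labelled library, and low calls 29, 4, 8 and 6 in the 4 lines. With a pseudocount of 5, medians were -0.22 in K562 and 0.18 in THP-1, high calls 0, 0, 0 and 1, and low calls 0 in K562 and HL60. Unscaled TPM gave a median of -0.68 and 0 high calls in K562. Members above 0 in all libraries had a median of -0.27 in K562, and 2, 0 and 1 high calls in THP-1, the MOLM13-labelled library and HL60, with 0 low in K562. Members with at least 80% of words of their own had a median of 0.000183 in HL60, high calls of 1, 2 and 1 in THP-1, the MOLM13-labelled library and HL60, and 0 low in HL60.

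At a log2 difference of 1, high calls were 3, 25, 24 and 7 and low calls 24, 3, 8 and 7; at 3, high calls were 0, 1, 1 and 1 and low calls 0 in K562 and HL60. Not divided by length, 0 members were high in K562, and 8, 1, 2 and 2 were low in the 4 lines. Without the MOLM13-labelled library, 13 were high in THP-1, 5 high in HL60 and 8 low in K562. Protein-coding members alone gave 0 low in HL60. Of the 21 called members, 11 kept the call when not divided by length, 19 with unscaled TPM, 21 at a minimum of 1200 aligned bases, 3 at a log2 difference of 3 and 1 with a pseudocount of 5; ZNF431 changed sign, to -0.080, when not divided by length. Leaving out a library relaxes the rule, since fewer lines must be exceeded.

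Members at 1 or more rested on medians of 136 to 290 footprint equivalents per library, and the lowest on 12 to 25.5; Poisson intervals cover counting error only, and the spread between cultures is unknown.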
